A study of Mus musculus with 12 samples.

Results

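The integrated stress response and the unfolded protein response of the endoplasmic reticulum (ER) were read out in mouse CD8+ and CD4+ T cells kept with or without linoleic acid. The module comprised 42 listed genes, of which 24 were integrated stress response genes, mostly targets of the transcription factor ATF4, and 18 were ER regulators, chaperones, oxidoreductases and degradation factors. A listed gene was measured by the probe set that carried its symbol and no other, or, where several did so, as for Edem1, by the brightest of them on average. This gave 40 measured genes, 23 of the integrated stress response and 17 of the ER, out of 22180 named genes on the array. Aars shared its probe set with Exosc6 and Pdia4 shared its probe set with Mir704, and no value was assigned to these 2 genes. All 40 measured genes passed the filter on low values, a mean of at least log2 4.28, and belonged to the 14323 genes that were tested.

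Whole spleen cells were cultured for 24 h, either with linoleic acid at 50 µM or in control medium, and T cells were sorted afterwards, so the T cells met this dietary polyunsaturated fatty acid among all other spleen cells. The 4 groups of 3 arrays were CD8+ T cells from linoleic acid culture, CD8+ T cells from control culture, CD4+ T cells from linoleic acid culture and CD4+ T cells from control culture. Strain, age, sex and genotype of the mice are not given in the labels, and neither is any stimulus to the T cells in culture. The study asked whether CD4 and CD8 T cells respond differently to linoleic acid. Each group's arrays bear the numbers 1 to 3, and the labels do not say whether a number stands for a mouse, a culture or a repeat, so p-values cover the spread between these arrays alone and that spread may be technical.

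In the integrated stress response, a kinase that senses missing amino acids, unfolded ER protein, viral RNA or a lack of haem phosphorylates the translation factor eIF2. Protein synthesis then falls in general while the messenger of ATF4 is translated, and ATF4 switches on genes for amino acid synthesis, amino acid transport, tRNA charging and, if stress persists, cell death. The unfolded protein response adds the ER regulators IRE1, which splices the messenger of XBP1, and ATF6, which is cut from its membrane anchor, and both raise the folding and degradation machinery of the ER. T cells turn on amino acid transport and mitochondrial folate enzymes when they are activated, and plasma cells, which secrete antibody, hold far more ER than resting T cells. Gene-level intensities do not show XBP1 splicing, eIF2 phosphorylation or the amount of ATF4 protein.

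The division of the module into its arms was visible in the promoter sequences. The RefSeq promoter table (GRCm38.p6, 250 bases before to 50 bases after each start) held a window for 37 of the 42 listed genes, 3 of them with several windows, and none for Slc7a5, Wars, Atf6, Hyou1 and Manf. The 4 motifs searched on both strands were the core of the C/EBP-ATF response element (CARE, TGATGNAA), through which ATF4 acts, the cyclic AMP response element (CRE, TGACGTCA), the ER stress response element ERSE-I (CCAAT, 9 bases, CCACG) and its variant ERSE-II (ATTGG, 1 base, CCACG). The CARE core stood in 7 of 22 integrated stress response genes (31.8%), in 1 of 15 ER genes (6.67%) and in 3.97% of the 32851 windows in the table. ERSE-I stood in 0 of 22 integrated stress response genes, in 7 of 15 ER genes (46.7%) and in 0.119% of all windows. ERSE-II was found in Herpud1 alone among the listed genes and in 0.0365% of all windows, and the CRE in Ppp1r15a alone and in 1.79% of all windows. No sites of different motifs overlapped. Letters alone do not show that a factor binds there.

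The 5 CARE sites below lie upstream of measured integrated stress response genes and are shown because a response through ATF4 would be read through such elements; capitals mark the core, and each is printed on the strand on which the core reads forward.
Atf3, chr1:191183416-191183463, + strand: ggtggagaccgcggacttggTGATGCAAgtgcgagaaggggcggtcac
Nupr1, chr7:126625553-126625600, + strand: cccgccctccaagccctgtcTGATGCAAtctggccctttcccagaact
Chac1, chr2:119351029-119351076, - strand: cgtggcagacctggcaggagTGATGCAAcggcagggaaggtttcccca
Asns, chr6:7693210-7693252, - strand: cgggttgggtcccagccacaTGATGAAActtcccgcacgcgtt
Gars, chr6:55037951-55037998, - strand: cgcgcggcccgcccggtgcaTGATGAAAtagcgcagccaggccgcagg

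The ER stress response elements are shown for the ER genes that hold them, since these are the elements read by ATF6 and XBP1. Capitals mark the whole element from its first fixed base to its last, the unfixed bases between included, and Herpud1 is shown with ERSE-II and with its CARE core.
Hspa5, chr2:34772005-34772063, + strand: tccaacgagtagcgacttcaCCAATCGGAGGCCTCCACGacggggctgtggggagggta
Hsp90b1, chr10:86705618-86705676, - strand: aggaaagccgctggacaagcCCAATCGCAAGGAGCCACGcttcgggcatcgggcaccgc
Hsp90b1, chr10:86705513-86705571, + strand: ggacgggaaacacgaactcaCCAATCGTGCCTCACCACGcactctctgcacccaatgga
Dnajc3, chr14:118937807-118937865, + strand: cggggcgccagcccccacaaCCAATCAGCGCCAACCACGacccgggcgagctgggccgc
Creld2, chr15:88819500-88819558, - strand: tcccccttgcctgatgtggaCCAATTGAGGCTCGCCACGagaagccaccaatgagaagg
Calr, chr8:84847055-84847113, + strand: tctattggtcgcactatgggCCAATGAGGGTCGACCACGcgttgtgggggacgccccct
Canx, chr11:50325780-50325838, - strand: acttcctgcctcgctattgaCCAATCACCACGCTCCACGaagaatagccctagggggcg
Pdia6, chr12:17266471-17266529, + strand: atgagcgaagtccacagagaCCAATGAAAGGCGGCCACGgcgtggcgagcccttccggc
Herpud1, ERSE-II, chr8:94386357-94386407, + strand: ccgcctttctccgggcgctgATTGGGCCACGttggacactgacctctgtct
Herpud1, CARE, chr8:94386297-94386344, - strand: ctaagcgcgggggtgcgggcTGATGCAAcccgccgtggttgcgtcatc

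Values are log2 intensities, comparable between arrays for 1 gene but not between genes, because probe sets differ in how brightly they hybridize. Array medians lay between 4.66 and 4.80, arrays correlated at 0.946 to 0.984, and the number of arrays limits the precision. Where groups are said to overlap or not, this is a description of the arrays. The share of all tested genes whose groups did not overlap was not counted, so a lack of overlap is no result about the module. Cd4 and Cd8a told the sorted cell types apart on every array. Cd4 read 5.12 to 6.48 in CD8 arrays and 10.77 to 11.19 in CD4 arrays. Cd8a read 10.98 to 11.29 in CD8 arrays and 5.01 to 6.82 in CD4 arrays. The co-receptor gene of the other cell type was lowest on arrays numbered 1, at 5.01 to 5.41, against 6.01 to 6.82 on the rest. The 13 measured B cell markers, foreign to a T cell sort, followed the array numbers. Arrays numbered 1 had marker means of 5.82 to 6.22, those numbered 2 had 6.97 to 7.56 and those numbered 3 had 7.10 to 7.56. Myeloid marker means did so too, at 4.96 to 5.18, 5.44 to 5.88 and 5.47 to 5.81 in the same order. A gauge of background came from 1390 olfactory and vomeronasal receptor genes. Their means were 2.99 to 3.15 on arrays numbered 1, 3.15 to 3.41 on those numbered 2 and 3.28 to 3.46 on those numbered 3. The gauge was their 95th percentile, log2 5.12. Atf5, Cebpb, Nupr1, Sesn2, Chac1 and Asns had means below it, as had 4502 of all tested genes, so a small change in these 6 genes could go unseen. In such bulk samples, fewer cells of a type and less RNA per cell cannot be told apart.

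Neither arm of the module passed the test for a response to linoleic acid in either T cell type. In CD8 T cells 0 of 40 genes passed an adjusted p of 0.05 in limma, as did 0% of all tested genes, and with the array number as a block the counts were 0 genes of the module and 0.00698% of all tested genes. In CD4 T cells the count was also 0 of 40, against 0% of all tested genes, and with the block 0 of 40 against 0.00698%. At an unadjusted p under 0.05, the module had 1 gene in CD8 T cells, where 5.08% of all tested genes lay, and 0 genes in CD4 T cells, where 2.6% lay. With the array number as a block, 4 of 40 lay under an unadjusted 0.05 in CD8 T cells (Slc7a1, Shmt2, Slc7a5 and Mthfd2, all with lower values), against 13.5% of all tested genes, and 2 in CD4 T cells (Cebpb and Nupr1, both with lower values), against 5.61%. The 95% intervals give the sizes of difference that the arrays leave possible. In CD8 T cells they ran from -1.06 for Slc7a5 to 0.60 for Ddit3 on the log2 scale, and 39 of 40 lay within a 2-fold change. In CD4 T cells they ran from -0.73 for Cebpb to 0.77 for Ppp1r15a, and all 40 lay within a 2-fold change.

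None of the 8 regulators of the integrated stress response passed the test for linoleic acid, and Nupr1 in CD4 T cells was the regulator whose groups did not overlap. Atf4, the factor at the head of the response, read 8.63, 8.63 and 8.64 in CD8 linoleic acid arrays, against 8.43, 8.86 and 8.66 in CD8 control arrays. On CD4 arrays it read 8.76, 8.89 and 8.78 in linoleic acid arrays, against 8.71, 8.73 and 9.14 in control arrays. The linoleic acid values lay inside the control range in both cell types, and the differences were -0.02 ± 0.14 in CD8 and -0.05 ± 0.14 in CD4 T cells (log2, SE, n = 3 arrays a group).

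Ddit3, which encodes the death-promoting factor CHOP, had the widest range between arrays among the regulators of the integrated stress response. It read 6.67, 6.98 and 7.24 in CD8 linoleic acid arrays, against 6.62, 7.35 and 6.88 in CD8 control arrays. It read 6.98, 7.16 and 7.04 in CD4 linoleic acid arrays, against 6.26, 7.23 and 7.53 in CD4 control arrays. Groups overlapped in both cell types, with differences of 0.02 ± 0.27 in CD8 and 0.05 ± 0.27 in CD4 T cells.

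Cebpb, a partner of ATF4 and CHOP that is also an inflammatory regulator, showed the smallest p of the module in CD4 T cells. Its values were 5.09, 4.95 and 4.36 in CD4 linoleic acid arrays, against 5.39 and 5.09 in CD4 control arrays 1 and 3, with control array 2 between the higher pair of linoleic acid values. The difference of -0.36 ± 0.17 did not pass the test (limma adjusted p = 1), the groups overlapped, and array 3 of the linoleic acid group held the lowest value. Nupr1, a small stress-induced chromatin protein, read 4.69, 4.77 and 4.57 in CD4 linoleic acid arrays, against 5.11, 4.90 and 4.97 in CD4 control arrays, and its difference of -0.31 ± 0.18 did not pass either (adjusted p = 1). The CD4 groups did not overlap for Nupr1, but its mean of log2 4.80 lay under the background gauge, and in CD8 T cells it read 4.64, 5.15 and 4.64 with linoleic acid, against 4.85 and 4.33 in control arrays 1 and 3, with control array 2 inside the linoleic acid range. Atf3, an early stress factor that feeds back on the response, had the third smallest p of the arm in CD4 T cells with a difference of -0.20 ± 0.17. The other regulators, Atf5, Cebpg and Trib3, had differences of -0.08 to 0.09 in CD8 and of -0.05 to 0.07 in CD4 T cells. Trib3, a pseudokinase that restrains ATF4 and is among its most responsive targets in many cells, differed by 0.01 ± 0.19 in CD8 and by 0.05 ± 0.19 in CD4 T cells.

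The feedback and effector genes gave the highest single difference of the module in CD4 T cells, again within the spread. Ppp1r15a, whose product GADD34 leads a phosphatase back to eIF2, read 7.33, 7.05 and 6.91 in CD4 linoleic acid arrays, against 7.26, 6.77 and 6.47 in CD4 control arrays. Each linoleic acid array lay above the control array of its number, by 0.07, 0.29 and 0.43, yet the groups overlapped and the difference of 0.26 ± 0.23 did not pass (adjusted p = 1, and 0.896 with the block). Ppp1r15a differed by 0.06 ± 0.23 in CD8 T cells. Ddit4 and Sesn2, which both restrain growth signalling through mTORC1, and Chac1, which breaks down glutathione, had differences of 0.05 to 0.22 in CD8 and of -0.09 to 0.08 in CD4 T cells.

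None of the metabolic targets passed in either cell type. Of the 5 synthesis genes, 4 had lower values with linoleic acid in CD8 (median -0.03) and 5 in CD4 T cells (median -0.07). All 3 transporters had lower values in CD8 (median -0.32) and 2 of 3 in CD4 T cells (median -0.01), and for the tRNA synthetases the counts were 3 of 3 (median -0.23) and 1 of 3 (median 0.01). Mthfd2, the mitochondrial folate enzyme of the ATF4 programme, was the gene with an unadjusted p under 0.05 in the fit without a block. It read 6.26, 6.13 and 6.08 in CD8 linoleic acid arrays, against 6.39, 6.27 and 6.55 in CD8 control arrays. The 3 linoleic acid values lay below the 3 control values, and the difference of -0.25 ± 0.11 had an unadjusted p of 0.0445 and an adjusted p of 0.757 in limma. Mthfd2 differed in CD4 T cells by -0.07 ± 0.11, and its groups overlapped. Averaged over both cell types the difference was -0.16 ± 0.08 (adjusted p = 0.925).

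Slc7a1, a carrier of cationic amino acids, read 6.46, 6.49 and 6.04 in CD8 linoleic acid arrays, against 6.82, 6.72 and 6.41 in CD8 control arrays. Gars, which charges tRNA with glycine, read 8.66, 8.61 and 8.29 in CD8 linoleic acid arrays, against 8.71, 8.77 and 8.79 in CD8 control arrays. The groups did not overlap for Gars and overlapped for Slc7a1, and neither difference passed, at -0.24 ± 0.12 for Gars and -0.32 ± 0.16 for Slc7a1 (adjusted p = 0.757 for each). Each linoleic acid array of Slc7a1 lay below the control array of its number, with differences of -0.37, -0.23 and -0.36, and with the block its adjusted p was 0.299 (unadjusted 0.00862, the smallest of the module in CD8 T cells). Slc7a5, the light chain of the leucine carrier, had the lowest difference of the module at -0.44 ± 0.29. It read 7.36, 7.23 and 6.12 in CD8 linoleic acid arrays, against 7.28, 7.56 and 7.18 in CD8 control arrays, and array 3 held the lowest value. Its heavy chain Slc3a2 read 8.55, 8.80 and 8.16 in CD8 linoleic acid arrays, against 8.50, 8.90 and 8.64 in CD8 control arrays, and array 3 was again the lowest. The 3 transporters differed in CD4 T cells by -0.06 to 0.11 and the 3 tRNA synthetases by -0.11 to 0.08.

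Asns, which makes asparagine and is the usual gauge of amino acid shortage, stayed within a narrow band near background. It read 4.73, 4.69 and 4.77 in CD8 linoleic acid arrays, against 4.65, 4.79 and 4.84 in CD8 control arrays. It read 4.81, 4.77 and 4.74 in CD4 linoleic acid arrays, against 4.73, 4.84 and 4.93 in CD4 control arrays. All 12 values lay below the background gauge of 5.12, and the groups overlapped, with differences of -0.03 ± 0.11 in CD8 and -0.06 ± 0.11 in CD4 T cells. The serine synthesis genes Psat1 and Phgdh differed by -0.03 ± 0.19 and 0.09 ± 0.16 in CD8 T cells, and by -0.19 ± 0.19 and -0.05 ± 0.16 in CD4 T cells.

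**Figure D1:**
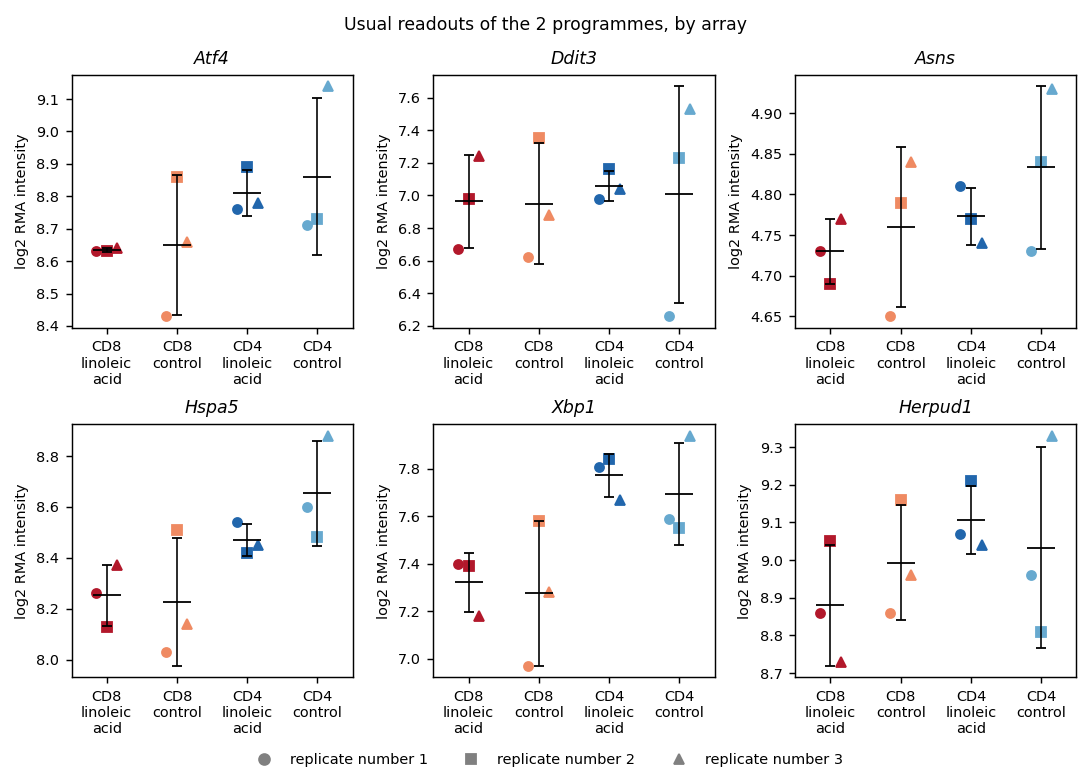
Log2 RMA intensity of 6 usual readouts, Atf4, Ddit3 and Asns of the integrated stress response and Hspa5, Xbp1 and Herpud1 of the ER, on the 12 arrays; each point is an array, its shape gives the array number, and black bars give the mean and SD of the 3 arrays of a group. The linoleic acid and control groups overlap in each panel within a cell type, as for Atf4 at 8.63 to 8.64 in CD8 linoleic acid arrays and 8.43 to 8.86 in CD8 control arrays, while the mean of Xbp1 is lower in CD8 than in CD4 T cells.

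No gene of the ER arm passed either, and the linoleic acid and control arrays overlapped for all 17 in both cell types. Hspa5, the chaperone BiP and the standard readout of ER stress, read 8.26, 8.13 and 8.37 in CD8 linoleic acid arrays, against 8.03, 8.51 and 8.14 in CD8 control arrays. It read 8.54, 8.42 and 8.45 in CD4 linoleic acid arrays, against 8.60, 8.48 and 8.88 in CD4 control arrays. Groups overlapped in both cell types, and the differences were 0.03 ± 0.14 in CD8 and -0.19 ± 0.14 in CD4 T cells (adjusted p = 0.964 and 1).

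Xbp1, the regulator spliced by IRE1, read 7.40, 7.39 and 7.18 in CD8 linoleic acid arrays, against 6.97, 7.58 and 7.28 in CD8 control arrays. It read 7.81, 7.84 and 7.67 in CD4 linoleic acid arrays, against 7.59, 7.55 and 7.94 in CD4 control arrays. The overlapping groups gave differences of 0.05 ± 0.16 in CD8 and 0.08 ± 0.16 in CD4 T cells. Atf6, the other regulator, differed by -0.04 ± 0.26 in CD8 and by 0.11 ± 0.26 in CD4 T cells.

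Herpud1, an ER degradation factor that carries both a CARE core and ERSE-II in the window shown above, could have answered to either arm. It read 8.86, 9.05 and 8.73 in CD8 linoleic acid arrays, against 8.86, 9.16 and 8.96 in CD8 control arrays. It read 9.07, 9.21 and 9.04 in CD4 linoleic acid arrays, against 8.96, 8.81 and 9.33 in CD4 control arrays. Neither pair of groups separated, with differences of -0.11 ± 0.15 in CD8 and 0.07 ± 0.15 in CD4 T cells.

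The remaining chaperones lay as close to their controls. The smallest p of the ER arm in CD4 T cells belonged to Dnajb9, a BiP cochaperone induced by XBP1, at 9.11, 8.85 and 8.91 in linoleic acid arrays, against 8.94, 8.70 and 8.61 in control arrays. Each linoleic acid array lay above the control array of its number, the groups overlapped, and the difference of 0.21 ± 0.14 did not pass (adjusted p = 1). Hsp90b1, the ER member of the HSP90 chaperones, differed by -0.16 ± 0.11 in CD4 and by -0.01 ± 0.11 in CD8 T cells. In CD8 T cells the lowest p values of the ER arm were those of Pdia3, Hyou1 and Edem1, with differences of -0.20 ± 0.12, -0.24 ± 0.15 and -0.22 ± 0.15 (adjusted p = 0.757 for each). Pdia3 is a disulfide isomerase for glycoproteins, Hyou1 renews the nucleotide on BiP, and Edem1 picks misfolded glycoproteins for degradation. Hyou1 read 7.16, 7.15 and 6.59 in CD8 linoleic acid arrays, against 7.12, 7.27 and 7.23 in CD8 control arrays, and array 3 was the only linoleic acid array outside the control range.

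Genes were also read by promoter element, and none of them passed the test for linoleic acid. The 6 measured integrated stress response genes with a CARE core, Atf3, Nupr1, Trib3, Chac1, Asns and Gars, differed by -0.24 (Gars) to 0.15 (Chac1) in CD8 T cells and by -0.31 (Nupr1) to 0.08 (Gars) in CD4 T cells. The 7 ER genes with ERSE-I, shown above, differed by -0.16 (Calr) to 0.03 (Hspa5) in CD8 T cells and by -0.19 (Hspa5) to 0.00 (Calr) in CD4 T cells. The other 10 measured ER genes, 3 of which had no window in the table, differed by -0.24 (Hyou1) to 0.05 (Xbp1) in CD8 T cells and by -0.07 (Pdia3) to 0.21 (Dnajb9) in CD4 T cells, and no test compared the groups.

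**Figure D2:**
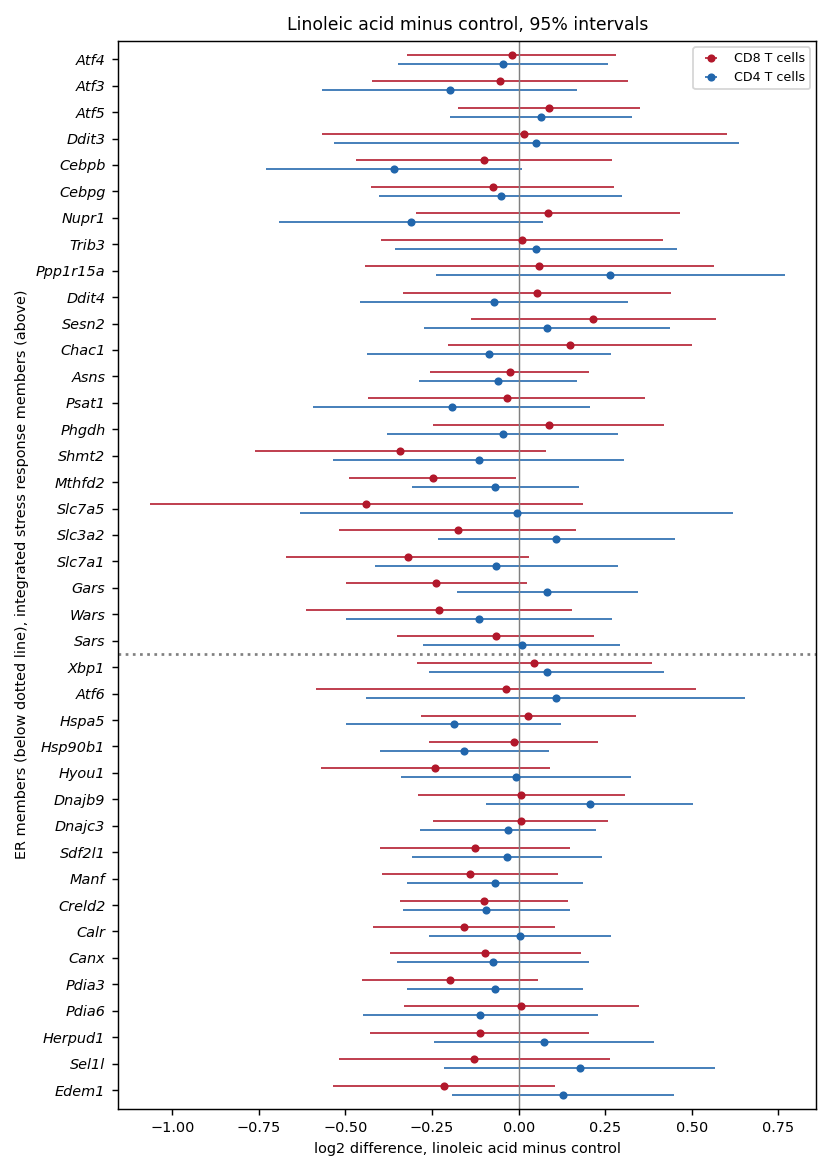
Log2 difference of linoleic acid minus control for the 40 measured genes in CD8 (red) and CD4 (blue) T cells, 3 arrays a group; points are limma estimates, bars 95% intervals, and the dotted line parts the integrated stress response genes above from the ER genes below. Estimates lie between -0.44 and 0.22 in CD8 and between -0.36 and 0.26 in CD4 T cells, and only the interval of Mthfd2 in CD8 T cells leaves out 0.

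As groups, the integrated stress response genes had 9 higher and 14 lower members in CD8 T cells with linoleic acid, with a median difference of -0.03, and the ER genes had 5 higher and 12 lower members with a median of -0.10. Over all tested genes in CD8 T cells 5284 lay higher and 9039 lower, with a median of -0.06, so both arms stood near the rest of the genes. In CD4 T cells the integrated stress response genes had 8 higher and 15 lower members with a median of -0.05, and the ER genes 7 higher and 10 lower with a median of -0.03, beside 6959 higher, 7364 lower and a median of -0.00 over all tested genes. Averaged over both cell types 0 of 40 genes passed, as did 0% of all tested genes, and with the block 0 of 40 passed against 0.182%. At an unadjusted p under 0.05 the averaged comparison held 0 of the 40 genes and 4.84% of all tested genes, and with the block 3 and 9.75%. B cell and myeloid markers leaned the other way, with 9 of 13 and 14 of 15 members higher with linoleic acid in CD8 T cells (medians 0.10 and 0.17) and 10 of 13 and 12 of 15 higher in CD4 T cells (medians 0.14 and 0.11), with 0 past the threshold. Their part in these values was not tested.

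A wider set of 86 pathway genes outside the module was also read, with 81 measured and 76 tested. They comprised eIF2 kinases and their machinery, the other cytosolic tRNA synthetases, further amino acid genes and further ER folding and degradation genes. For linoleic acid 0 of the 76 passed in either cell type. In CD8 T cells 57 of 76 lay lower with a median of -0.13, and in CD4 T cells 53 of 76 lay lower with a median of -0.05. Higher values were held by 25% of them in CD8 and 30.3% in CD4 T cells, against 36.9% and 48.6% of all tested genes. At an unadjusted p under 0.05 without the block, 3 of the 76 lay in CD8 T cells, against 5.08% of all tested genes. In CD4 T cells 6 did so, 5 of them lower, against 2.6%, and no test compared these shares. The medians of the 4 lists ran from -0.17 (sensors) to -0.04 (amino acid genes) in CD8 and from -0.07 (ER genes) to -0.01 (sensors and amino acid genes) in CD4 T cells, beside -0.06 and -0.00 over all tested genes.

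The study's own question, whether CD4 and CD8 T cells differ in their response, was tested as the difference of the 2 responses, CD4 minus CD8. Here 0 of 40 genes passed, as did 0% of all tested genes, and with the block 0 of 40 against 0%. At an unadjusted p under 0.05 there were 0 of 40 genes, against 2.35% of all tested genes, and with the block 1 (Edem1), against 8.3%. The intervals were wider than for either response and ran from -0.94 for Nupr1 to 1.32 for Slc7a5. The smallest p of the integrated stress response arm were those of Gars, Nupr1 and Slc3a2, at 0.32 ± 0.17, -0.40 ± 0.25 and 0.29 ± 0.23, and those of the ER arm were Edem1, Sel1l and Hyou1, at 0.34 ± 0.21, 0.30 ± 0.26 and 0.23 ± 0.22 (adjusted p = 0.953 for each of the 6).

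Edem1 was the gene of the module whose same-numbered arrays moved in opposite directions in the 2 cell types. It read 8.98, 8.86 and 8.67 in CD4 linoleic acid arrays, against 8.96, 8.64 and 8.52 in CD4 control arrays. It read 9.11, 8.84 and 8.64 in CD8 linoleic acid arrays, against 9.15, 9.03 and 9.05 in CD8 control arrays. Each CD4 linoleic acid array lay above and each CD8 linoleic acid array below the control array of its number, a pattern held by 4.7% of all tested genes. Sel1l, the scaffold of the ER degradation ligase, read 7.64, 7.58 and 7.25 in CD4 linoleic acid arrays, against 7.44, 7.26 and 7.24 in CD4 control arrays, and 7.74, 7.43 and 6.93 in CD8 linoleic acid arrays, against 7.68, 7.41 and 7.40 in CD8 control arrays. Array 3 of the CD8 linoleic acid group held its lowest value.

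The cell types themselves differed in 3 genes of the module when both cultures were averaged, a comparison added after the data were seen. CD8 T cells held less Mthfd2, less Pdia3 and less Xbp1 than CD4 T cells, and 3 of 40 genes stood beside 4.71% of all tested genes past the threshold. The share of the module lay near that of all genes in some of the counts given here, such as those without a block in linoleic acid culture. It lay further above it in others, such as unadjusted p in control culture, and no test compared the shares. At an unadjusted p under 0.05 there were 9 of 40 genes, against 14.4% of all tested genes. Within linoleic acid culture 1 of 40 passed, Mthfd2, against 2.03% of all tested genes, and with the array number as a block 3 passed, Mthfd2, Pdia3 and Trib3, all lower in CD8 T cells, against 5.57% of all tested genes. Within control culture 0 of 40 passed, against 1.95% of all tested genes. At an unadjusted p under 0.05 the module held 5 of 40 genes in linoleic acid culture, against 11.8% of all tested genes (with the block 10, against 19.1%), and 10 of 40 in control culture, 5 higher and 5 lower, against 9.37%.

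Mthfd2 gave the firmest difference of the module. Its 6.26, 6.13 and 6.08 in CD8 linoleic acid arrays stood against 6.61, 6.72 and 6.70 in CD4 linoleic acid arrays. Its 6.39, 6.27 and 6.55 in CD8 control arrays stood against 6.73, 6.82 and 6.68 in CD4 control arrays. The CD8 and CD4 arrays did not overlap in either culture. The difference was -0.43 ± 0.08 over both cultures, a level 1.35-fold lower in CD8 T cells (adjusted p = 0.00459), -0.52 ± 0.11 in linoleic acid culture (adjusted p = 0.0269) and -0.34 ± 0.11 in control culture (adjusted p = 0.223). Leaving out single arrays kept the averaged call, and leaving out all 4 arrays numbered 2 ended it (adjusted p = 0.278). The call within linoleic acid culture ended without CD4 linoleic acid array 1 (adjusted p = 0.0667), 2 (0.142) or 3 (0.0949) and without CD8 linoleic acid array 2 (0.0994) or 3 (0.076).

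Mthfd2 and Mthfd1l, enzymes of the mitochondrial folate pathway, differed between the cell types in opposite directions. Mthfd2 oxidizes the folate-bound carbon unit that Shmt2 takes from serine, and Mthfd1l releases it as formate. Mthfd1l was outside the module and is named because it was the only other pathway gene past the threshold without a block. Over both cultures 1 of the 76 tested pathway genes outside the module passed, against 4.71% of all tested genes. The count was also 1 within linoleic acid culture, against 2.03%, and within control culture, against 1.95%. Mthfd1l read 7.03, 6.90 and 6.68 in CD8 linoleic acid arrays, against 6.33, 6.41 and 6.27 in CD4 linoleic acid arrays. It read 7.05, 7.09 and 7.13 in CD8 control arrays, against 6.47, 6.21 and 6.55 in CD4 control arrays. No CD8 array overlapped a CD4 array, and CD8 T cells held more Mthfd1l by 0.53 ± 0.13 in linoleic acid culture (adjusted p = 0.0448), by 0.68 ± 0.13 in control culture (0.00956) and by 0.61 ± 0.09 over both (0.000763). Shmt2 read 7.69, 7.43 and 6.81 in CD8 linoleic acid arrays, against 6.91, 7.14 and 6.79 in CD4 linoleic acid arrays, which overlapped. In control culture it read 7.65, 7.68 and 7.63 in CD8 arrays, against 7.26, 7.15 and 6.77 in CD4 arrays, without overlap. Its difference of 0.48 ± 0.14 over both cultures did not pass (adjusted p = 0.0704) and passed without CD8 linoleic acid array 3 (0.00414).

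Pdia3, which also serves in the loading of peptides onto MHC class I molecules, read 9.11, 9.16 and 8.86 in CD8 linoleic acid arrays, against 9.43, 9.55 and 9.44 in CD4 linoleic acid arrays. It read 9.08, 9.33 and 9.31 in CD8 control arrays, against 9.56, 9.51 and 9.56 in CD4 control arrays. The cell types did not overlap in either culture, and the difference was -0.37 ± 0.08 over both cultures (adjusted p = 0.0192), -0.43 ± 0.12 in linoleic acid culture (0.096, and 0.0402 with the block) and -0.30 ± 0.12 in control culture (0.364). The averaged call ended without CD8 control array 1 (adjusted p = 0.0584) or CD4 linoleic acid array 2 (0.0641), and without all 4 arrays numbered 1 (0.131), 2 (0.23) or 3 (0.142). Its relative Pdia6 differed by -0.18 ± 0.11 over both cultures, and the lectin chaperones Calr and Canx, with which Pdia3 works, by -0.04 ± 0.09 and 0.05 ± 0.09.

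Xbp1 averaged 7.32 ± 0.13 in CD8 linoleic acid and 7.77 ± 0.09 in CD4 linoleic acid arrays (SD, n = 3 each), which did not overlap. In control culture it averaged 7.28 ± 0.30 in CD8 and 7.69 ± 0.22 in CD4 arrays, and CD8 array 2 at 7.58 reached the CD4 range. The averaged difference of -0.43 ± 0.11 just passed (adjusted p = 0.0408), and it ceased to pass when any of 9 of the 12 arrays was left out (0.0528 to 0.108) or all arrays of any 1 number (0.145 to 0.282), while its direction held. Xbp1 is a defining gene of plasma cells. CD8 T cells had lower values than CD4 T cells of all 13 B cell markers (median -0.43, 0 past the threshold), of all 4 tested plasma cell markers (median -0.20, 1 past it) and of 13 of 15 myeloid markers (median -0.07, 1 past it). B cell marker means were 5.83 to 7.13 in CD8 linoleic acid and 6.22 to 7.56 in CD4 linoleic acid arrays, and 5.82 to 7.10 in CD8 control and 6.21 to 7.43 in CD4 control arrays. Their part in the values of Xbp1, Pdia3 and Mthfd2 was not tested. In the arrays numbered 1, CD8 minus CD4 was -0.36 in linoleic acid and -0.34 in control culture for Mthfd2. It was -0.32 and -0.48 for Pdia3 and -0.40 and -0.61 for Xbp1. B cell marker means were lowest in these arrays but still differed between the cell types. They were 5.83 in CD8 and 6.22 in CD4 linoleic acid arrays, and 5.82 in CD8 and 6.21 in CD4 control arrays.

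None of the 4 motifs searched stood in the promoter windows of Mthfd2, Pdia3 and Xbp1. The 120 bases before the start given for these 3 genes in the promoter table are shown because the genes carry the calls between the cell types. For Mthfd2 that start lies inside the annotated span of the gene, chr6:83305704-83326011. The absence of a match says only that these letters are not in the window.
Mthfd2, chr6:83317605-83317724, - strand: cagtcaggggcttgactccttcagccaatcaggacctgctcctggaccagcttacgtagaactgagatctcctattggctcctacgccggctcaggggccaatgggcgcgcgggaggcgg
Pdia3, chr2:121413782-121413901, + strand: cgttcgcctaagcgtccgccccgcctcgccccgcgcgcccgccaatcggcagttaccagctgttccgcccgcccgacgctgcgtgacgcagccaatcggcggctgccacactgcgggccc
Xbp1, chr11:5520521-5520640, + strand: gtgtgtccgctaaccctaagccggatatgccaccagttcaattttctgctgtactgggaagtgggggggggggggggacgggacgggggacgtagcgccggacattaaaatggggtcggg

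Trib3 had a larger averaged difference than the 3 genes that passed, yet its arrays spread more and it did not pass without the block. It read 5.78, 5.46 and 5.37 in CD8 linoleic acid arrays, against 6.21, 6.08 and 5.80 in CD4 linoleic acid arrays. It read 5.75, 5.27 and 5.57 in CD8 control arrays, against 6.35, 5.94 and 5.65 in CD4 control arrays. Groups separated in linoleic acid culture and overlapped in control culture. The difference was -0.49 ± 0.19 in linoleic acid culture (adjusted p = 0.304, and 0.034 with the block) and -0.47 ± 0.13 over both cultures (0.0663). Atf4 itself was at 8.63 to 8.64 in CD8 linoleic acid and 8.76 to 8.89 in CD4 linoleic acid arrays, did not pass (-0.18 ± 0.14, adjusted p = 0.68), and Ddit3 differed by -0.09 ± 0.27 there. Chac1 ran the other way, at 4.72, 4.98 and 4.88 in CD8 linoleic acid arrays, against 4.43, 4.62 and 4.44 in CD4 linoleic acid arrays, without overlap, below the background gauge and without passing (0.36 ± 0.16, adjusted p = 0.402).

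**Figure D3:**
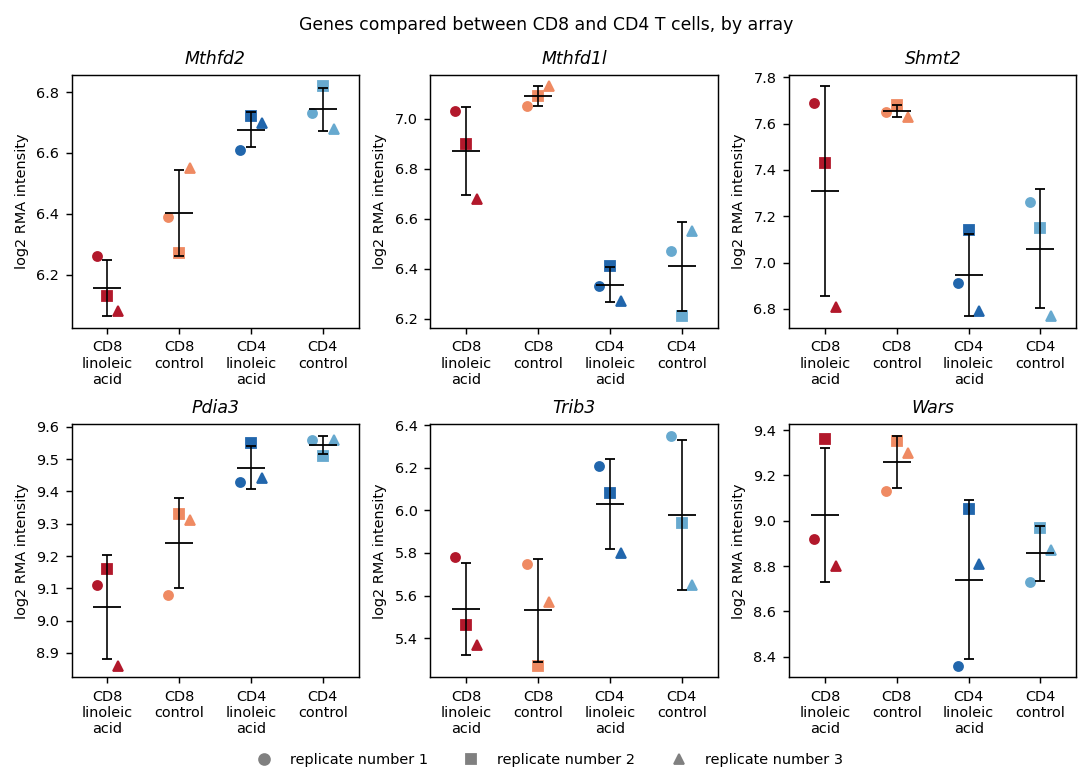
Log2 RMA intensity of Mthfd2, Shmt2, Pdia3, Trib3 and Wars of the module and of Mthfd1l, on the 12 arrays; each point is an array, its shape gives the array number, and black bars give the mean and SD of the 3 arrays of a group. Mthfd2 and Pdia3 lie lower and Mthfd1l higher in all 6 CD8 than in all 6 CD4 arrays, for Mthfd2 at 6.08 to 6.55 in CD8 and 6.61 to 6.82 in CD4 arrays.

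In control culture the 3 transporters and 3 tRNA synthetases had higher means in CD8 than in CD4 arrays, and none passed. The CD8 and CD4 control groups did not overlap for Slc7a5, Slc3a2, Gars and Wars, with CD8 minus CD4 differences of 0.48 ± 0.29, 0.34 ± 0.16, 0.38 ± 0.12 and 0.40 ± 0.18 (adjusted p = 0.72, 0.526, 0.198 and 0.495). How many of all tested genes were without overlap there was not counted. Gars read 8.71, 8.77 and 8.79 in CD8 control arrays, against 8.43, 8.26 and 8.45 in CD4 control arrays. Wars, which charges tRNA with tryptophan and is induced by interferon gamma, read 9.13, 9.35 and 9.30 in CD8 control arrays, against 8.73, 8.97 and 8.87 in CD4 control arrays. Slc7a1 and Sars overlapped in control culture, with differences of 0.06 ± 0.16 and 0.16 ± 0.13. In linoleic acid culture Slc7a5, Slc3a2, Gars and Wars overlapped, with differences of 0.05 ± 0.29, 0.06 ± 0.16, 0.06 ± 0.12 and 0.28 ± 0.18. The change of these differences between the cultures is the difference of the 2 responses given above, which did not pass for any of them.

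In the ER arm, Hspa5 read 8.26, 8.13 and 8.37 in CD8 linoleic acid arrays, against 8.54, 8.42 and 8.45 in CD4 linoleic acid arrays, without overlap, and 8.03, 8.51 and 8.14 in CD8 control arrays, against 8.60, 8.48 and 8.88 in CD4 control arrays, with overlap at array 2. Its difference of -0.32 ± 0.10 over both cultures did not pass (adjusted p = 0.112). Dnajb9 differed by -0.22 ± 0.14 in linoleic acid culture, and Sdf2l1, a partner of ER cochaperones, by 0.22 ± 0.09 over both cultures (adjusted p = 0.588 and 0.245). The remaining chaperones, Hsp90b1, Hyou1, Dnajc3, Manf and Creld2, differed by -0.11 to 0.04 over both cultures, and the degradation genes Herpud1, Sel1l and Edem1 by -0.13 to 0.20. By group, the ER genes had 5 higher and 12 lower members in CD8 T cells over both cultures with a median of -0.04, and the integrated stress response genes 11 higher and 12 lower with a median of -0.06, beside a median of -0.01 over all tested genes. In linoleic acid culture the medians were -0.12 for the ER genes, 0.05 for the integrated stress response genes and -0.02 for all tested genes, and in control culture 0.00, -0.06 and 0.00.

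**Figure D4:**
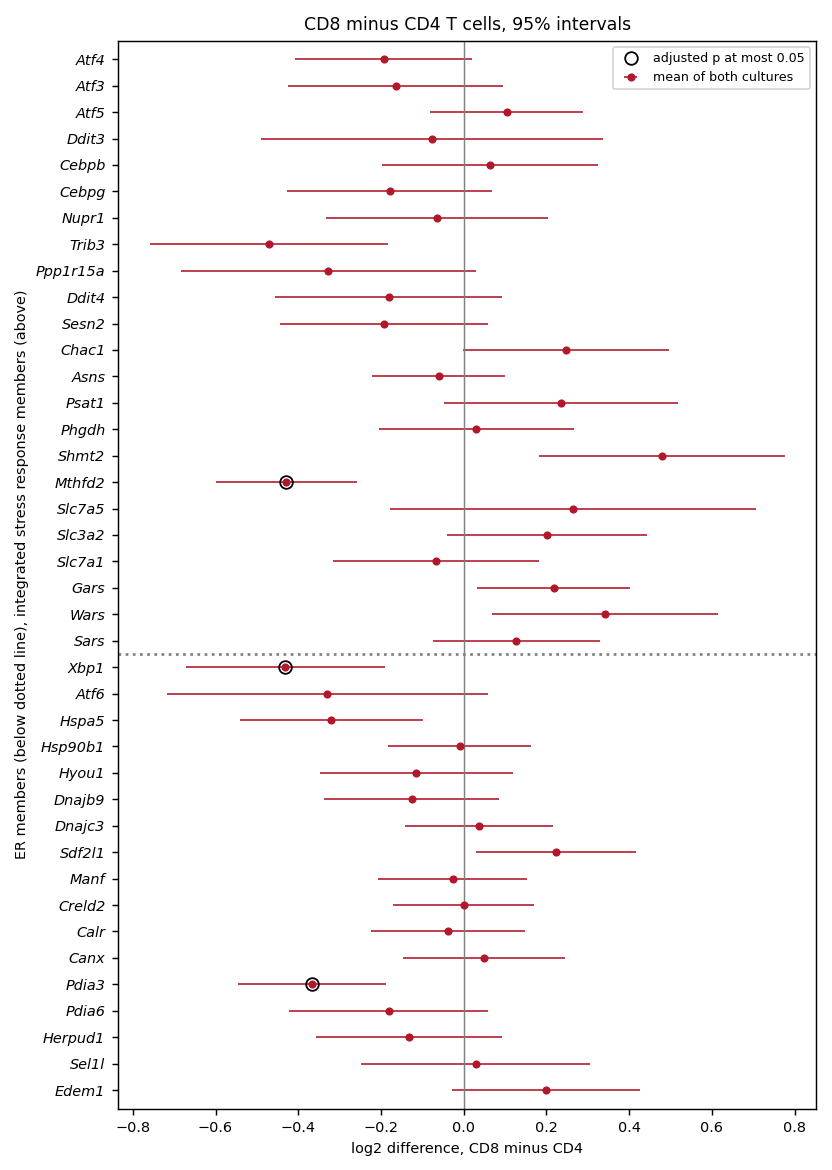
Log2 difference of CD8 minus CD4 T cells, averaged over both cultures, for the 40 measured genes, 6 arrays a cell type; points are limma estimates, bars 95% intervals, rings mark an adjusted p of at most 0.05, and the dotted line parts the integrated stress response genes above from the ER genes below. The ringed genes are Mthfd2 at -0.43, Pdia3 at -0.37 and Xbp1 at -0.43, and Shmt2 at 0.48 is the highest estimate.

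Exact permutation of the cell type within each culture over 400 relabellings was run for 4 of these genes, chosen after their values were known. It gave a two-sided p of 0.005 for Mthfd2 and for Pdia3, which is the smallest it can give, 0.01 for Xbp1 and 0.015 for Trib3. The arrays of Mthfd2 and Pdia3 separate by cell type in both cultures, as printed above. That alone fixes the p of 0.005, so it adds nothing to those values. The same test of linoleic acid within each cell type gave 0.025 for Mthfd2 and 0.075 for Cebpb. These relabellings take no account of array numbers. With labels exchanged only between same-numbered arrays (64 relabellings, smallest p 0.0312), the exact p for cell type was 0.0312 for Mthfd2, Pdia3 and Trib3 and 0.0625 for Xbp1, and for linoleic acid 0.0625 for Mthfd2 and for Cebpb. The p of 0.0312 is likewise fixed by same-numbered differences that all have the same sign. For cell type these exchanges also paired the CD8 and CD4 control arrays by number, where array numbers were not taken to pair arrays. None of these values is adjusted for the choice of genes.

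Cell type and array number took larger shares of the module's variation than culture did. The sum of squares of each gene over the 12 arrays was divided between cell type, culture, their interaction, array number and a remainder. Among the 40 genes the largest named share was that of array number for 21, of cell type for 16, of culture for 2 (Manf and Creld2) and of the interaction for 1 (Calr). Among all tested genes the shares of genes led by array number, cell type, culture and interaction were 56.3%, 22.4%, 12.5% and 8.8%. Array number has 2 degrees of freedom and the other terms have 1, which favours it in these counts. Per degree of freedom, cell type led in 19 of the 40 genes, array number in 15, culture in 4 and the interaction in 2, against 29.7%, 38.3%, 18.2% and 13.9% of all tested genes. Culture took a median of 5.7% of the sum of squares in integrated stress response genes, 6.0% in ER genes and 4.8% in all tested genes. Cell type took 20.6%, 14.7% and 6.9% in the same order, and array number 29.4%, 23.9% and 24.8%. Per degree of freedom array number took 14.7% in integrated stress response genes and 12.4% in all tested genes. Cell type led in Mthfd2 with 76.4%, Pdia3 with 70.6% and Xbp1 with 62.3%. Array number led in Atf6 with 66.2%, Cebpg with 62.6%, Sel1l with 62.2%, Slc7a1 with 62.1% and Ddit3 with 57.8%. Atf6, for example, read 5.62 to 6.06 on the arrays of number 1 and 6.19 to 6.92 on all others. B cell markers also differed by array number, as given above, and their part in these shares was not tested.

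**Figure D5:**
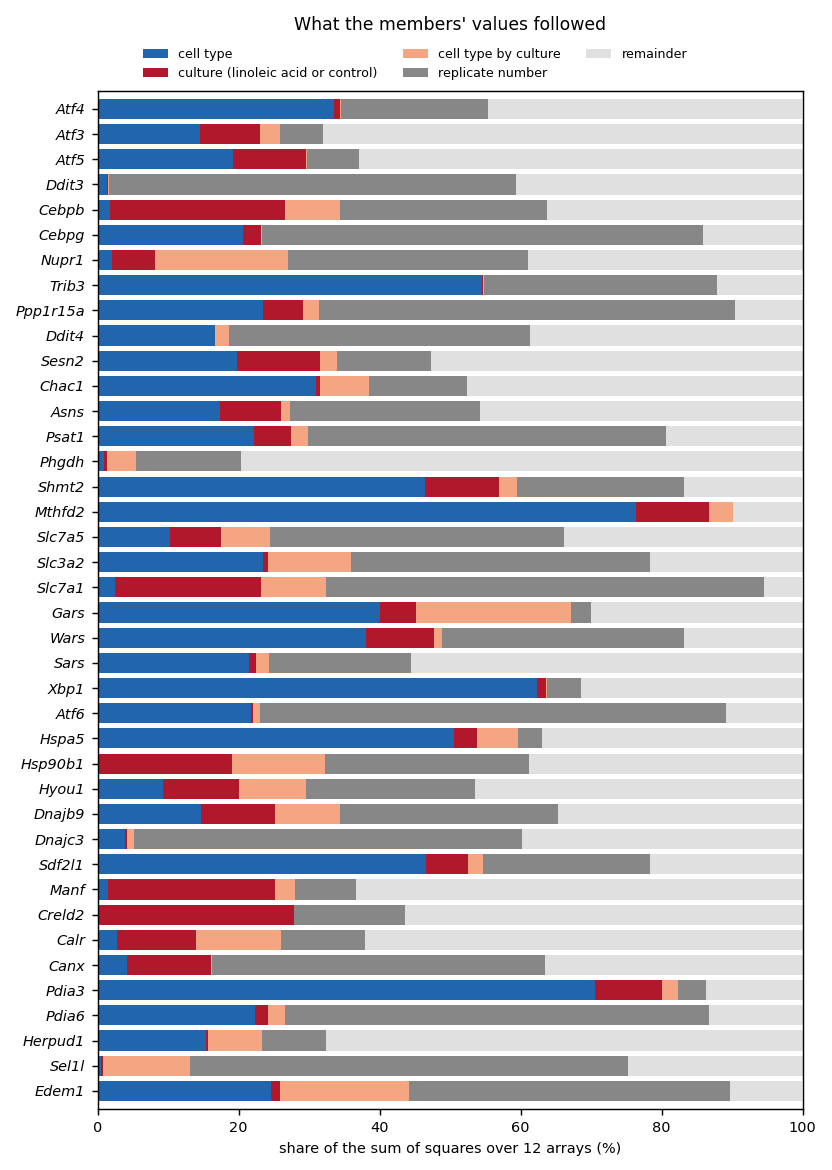
Share of the sum of squares over the 12 arrays, in percent, that went with cell type, culture, their interaction, array number and the remainder, as stacked bars for the 40 measured genes. Cell type takes 76.4% in Mthfd2 and 70.6% in Pdia3, array number takes 66.2% in Atf6, and culture takes a median of 5.7% in integrated stress response genes and 6.0% in ER genes.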

How the data were processed

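Per the labels' protocols, total RNA from an RNeasy kit was amplified (Ambion kit), biotin-labelled (Affymetrix kit) and hybridized to 12 single-colour MoGene-2_0-st arrays. The deposited values are log2 intensities of 41345 probe sets that the authors made with RMA, per the submitters' processing notes, which corrects background, normalizes quantiles and summarizes probes. For its software, summary level and build, the answer is not given in the sources used here. The values were used as deposited. From the platform annotation 23521 probe sets carried 1 gene symbol, 1814 several and 16010 none, and genes were named from the first kind alone.

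Group means were contrasted in 1 fit of the 12 arrays with limma 3.58.1 (R 4.3.3, lmFit and eBayes, two-sided). The fit had 8 residual degrees of freedom and 5.67 prior ones, and p-values were adjusted over 14323 genes by Benjamini-Hochberg, with a threshold of 0.05. Genes with a mean under the 40th percentile of probe set means were left out. The members, gene lists and marker lists were chosen with earlier results of these data known, so no list was tested as a set, and the average of the CD8 against CD4 contrasts was added after the data were seen.

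Genes given array by array were Atf4, Ddit3, Asns, Hspa5, Xbp1 and Herpud1, those past the threshold, and the 3 with the smallest p of each arm in a comparison, in full where they add to the text and as difference and error otherwise. Other pathway genes were named when they passed.

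Same-numbered arrays deviated together from their group means, with correlations over genes of 0.43, 0.19 and 0.42 between the CD8 groups of linoleic acid and control, 0.61, 0.19 and 0.32 between the CD4 groups, and 0.58, 0.26 and 0.52 between the linoleic acid groups of CD8 and CD4. Each exceeds 0.1, so the numbers were taken to pair arrays there, from the data and not the labels. Between CD8 and CD4 in control culture they were 0.54, -0.01 and 0.42, and no pairing was taken. The block spanned all groups, however, so every fit with it also joined the same-numbered CD8 and CD4 control arrays. B cell markers differed by array number too, and their part in these correlations was not tested. Alternatives were the block, other filters, mean over probe sets, repeated quantile normalization, median centring, an intensity trend, array weights, a fit on the arrays compared and leaving out arrays. The fit was tested on simulated data.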

Additional observations from a re-analysis of the deposited data

Results flagged for a closer look

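Edem1, an ER degradation factor, had opposite signs of its linoleic acid difference in all same-numbered arrays of the 2 cell types. Linoleic acid minus control was 0.02, 0.22 and 0.15 for CD4 arrays 1, 2 and 3, and -0.04, -0.19 and -0.41 for CD8 arrays 1, 2 and 3. The difference of the responses, CD4 minus CD8, was 0.34 ± 0.21 on the log2 scale and did not pass in limma (adjusted p = 0.953, and 0.6 with the array number as a block). Of all tested genes 4.7% showed such opposite signs.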

How the results depend on the processing

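For linoleic acid in CD8 T cells, in CD4 T cells and averaged, and for the CD4 minus CD8 response, 0 members passed under every alternative run. With the replicate block, CD8 against CD4 gave 3 members in linoleic acid culture, 1 in control culture (Shmt2, with 4.4% of all genes) and 8 averaged (Trib3, Ppp1r15a, Shmt2, Mthfd2, Wars, Xbp1, Atf6 and Pdia3, with 9.23% of all genes). Array numbers were taken to pair only the first of these comparisons, though the block joined same-numbered arrays of all groups. Array weights, whose estimate stopped before convergence, gave 6, 1 and 9. The fit on only the arrays compared gave 0 in linoleic acid culture (Mthfd2, adjusted p = 0.115). Leaving out arrays gave 0 to 1 members in linoleic acid culture, 0 in control culture and 0 to 4 averaged. For array weights and for leaving out arrays, the share of all tested genes is not given here. Those counts are therefore no result about the module. Averaged, Xbp1 also missed the threshold with no filter (0.066) and with median centring (0.0667).

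Signs turned only in differences that had not passed. Leaving out arrays, the linoleic acid difference in CD8 T cells ran from -0.13 to 0.09 for Atf4, -0.16 to 0.21 for Ddit3, -0.08 to 0.01 for Asns, -0.08 to 0.23 for Hspa5 and -0.15 to 0.20 for Xbp1. In CD4 T cells it ran from -0.15 to 0.11 for Atf4, -0.32 to 0.32 for Ddit3, -0.13 to 0.01 for Asns, -0.02 to 0.25 for Xbp1 and -0.09 to 0.25 for Herpud1, and CD8 minus CD4 for Ddit3 averaged ran from -0.26 to 0.05. In CD8 T cells Atf4 turned to 0.05 with repeated quantile normalization, Ddit3 to -0.04, Hspa5 to -0.03 and Xbp1 to -0.01 with median centring, and Ddit3 to -0.09 and Hspa5 to -0.15 with array weights. Of 1128 alternative values for 57 differences of single genes, 1047 kept direction and side of the threshold, and of 282 medians 256 moved by less than the spread between arrays. The cause of these changes was not tested. With 3 arrays a group, the printed intervals limit what the tests leave possible, and the 6 genes under the background gauge have less room to show a fall.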
